A study of Mus musculus with 6 samples.

Results

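Genes of the meningeal fibroblasts, the matrix-producing cells of the membranes around the brain, were followed in RNA sequencing of the mouse prefrontal cortex. The 10 genes are Dcn, Lum, Bgn, Fmod, Ogn, Igf2, Igfbp2, Aldh1a2, Slc13a4 and Abi3bp, matched by symbol among 23284 gene rows; collagens are left out of the set by design. All 10 passed the filter on low counts, as did 15258 genes in all. The tissue came from wild-type C57BL/6 mice of 8 to 10 weeks, which were kept for 6 days either alone (single-housed, 3 libraries) or with company (group-housed, 3 libraries), and the comparison asks how housing alters cortical expression. Whether every library stands for its own mouse is not stated in the labels, and the p-values rest on the variation among these 6 libraries, part of which may be technical. The growth protocol gives an age of 8 weeks, and no batch or date is labelled. Total counts were 32902303 to 33428512 in single-housed and 25858355 to 32088512 in group-housed libraries.

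The meninges consist of an outer dura and an inner pair of thin layers, the arachnoid and the pia, and the pia lies directly on the cortex and follows its vessels inward. Fibroblasts of these layers lay down collagen fibrils and the small leucine-rich proteoglycans that space those fibrils, and they are known as a source of retinoic acid and insulin-like growth factor 2 for the developing brain. The proteoglycans are also made by fibroblasts around larger vessels, and several of these genes have other sources in the brain. In bulk RNA, fewer cells of a type and less RNA per cell cannot be told apart, so a low level of these genes in a library can mean either.

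The set was low in 1 group-housed library and similar in the other 5 libraries. Summed over the 10 genes, CPM (counts scaled to the library total after TMM adjustment) were 166, 157 and 185 in single-housed replicates 1, 2 and 3, against 107, 171 and 164 in group-housed replicates 1, 2 and 3. Group-housed replicate 1 was below every other library, and the other group-housed libraries lay inside the range of the single-housed ones. Group-housed replicate 1 also had the fewest total counts, 25858355 against 30931952 to 33428512 in the other libraries. That library was the lowest of the 6 for 7 of the 10 genes, where it was the lowest for 26.4% of all genes tested. Single-housed replicate 3 was the highest for 6 of the 10, where it was the highest for 12.1% of all genes tested.

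**Figure D1:**
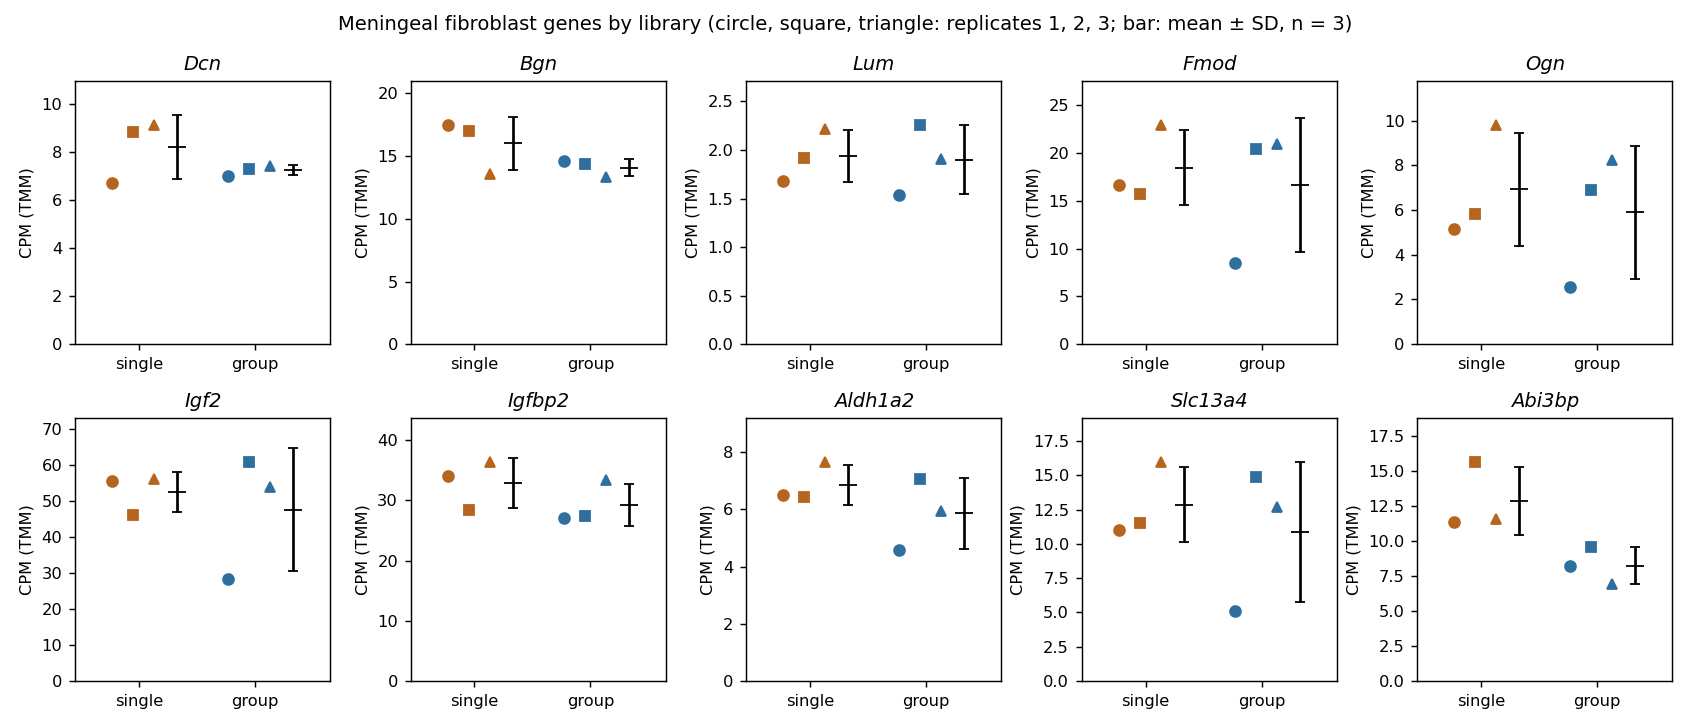
CPM of the 10 genes in each library, with single-housed libraries left of group-housed ones; circles, squares and triangles are replicates 1, 2 and 3, and bars are the mean ± SD (n = 3). The group-housed circle is lowest for Fmod, Ogn, Igf2 and Slc13a4, while for Abi3bp the 3 single-housed points all lie above the group-housed points.

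The small leucine-rich proteoglycans did not behave alike. Decorin, encoded by Dcn (chromosome 10, 96942134 to 96980796, mm9), binds collagen fibrils and transforming growth factor beta. Dcn had 6.68, 8.82 and 9.11 CPM in single-housed libraries, against 6.99, 7.30 and 7.40 CPM in group-housed libraries. Single-housed replicate 1 was the lowest of all, and the groups overlapped. Biglycan, encoded by Bgn (chromosome X, 70728974 to 70741275), is the closest relative of decorin. Bgn had 17.5, 17.0 and 13.6 CPM in single-housed libraries, against 14.6, 14.3 and 13.3 CPM in group-housed libraries. Its levels in group-housed libraries were close together, and the high values were those of single-housed replicates 1 and 2.

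Lumican, fibromodulin and osteoglycin, which bind or order collagen fibrils, had their lowest level in group-housed replicate 1. Lum (chromosome 10, 97028135 to 97035337) was the scarcest gene of the set, with 41 to 74 reads a library. It had 1.68, 1.91 and 2.22 CPM in single-housed libraries, against 1.54, 2.26 and 1.90 CPM in group-housed libraries. The groups overlapped almost fully. In group-housed replicate 1 the exact Poisson 95% interval of Lum, counting error only, was 1.14 to 2.15 CPM of the library total. It overlapped the intervals of all other libraries, and whether counting error accounts for the low value of Lum there was not tested. Fmod (chromosome 1, 135934092 to 135944854) had 16.7, 15.8 and 22.9 CPM in single-housed libraries, against 8.53, 20.4 and 21.0 CPM in group-housed libraries. Ogn (chromosome 13, 49703440 to 49719869) had 5.13, 5.83 and 9.80 CPM in single-housed libraries, against 2.55, 6.91 and 8.22 CPM in group-housed libraries. The Ogn count in group-housed replicate 1 was 68 reads (exact Poisson 95% interval 52.8 to 86.2, counting error only). That library was the lowest for all 3 genes.

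The growth factor gene Igf2 followed the same pattern at a higher level. Igf2 (chromosome 7, 149836673 to 149846940, minus strand) encodes insulin-like growth factor 2 and is an imprinted gene. It had 55.5, 46.2 and 56.1 CPM in single-housed libraries, against 28.2, 60.9 and 53.7 CPM in group-housed libraries. Apart from group-housed replicate 1 the groups overlapped. The antisense row Igf2as shares 98 exon bases with Igf2 and had 4 to 9 reads a library, against 750 to 1870 reads for Igf2. Igfbp2 (chromosome 1, 72871054 to 72899045) encodes a carrier protein of these growth factors and is also made by astrocytes. It had 34.0, 28.4 and 36.5 CPM in single-housed libraries, against 27.1, 27.5 and 33.3 CPM in group-housed libraries. No library stood far from the rest for this gene.

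Slc13a4 (chromosome 6, 35217953 to 35258126, minus strand) encodes a sodium-coupled sulfate transporter that choroid plexus also makes. Its levels were 11.0, 11.5 and 16.0 CPM in single-housed libraries, against 5.07, 14.9 and 12.7 CPM in group-housed libraries. Aldh1a2 (chromosome 9, 71063596 to 71144050) encodes a retinaldehyde dehydrogenase that makes retinoic acid. Its levels were 6.50, 6.43 and 7.68 CPM in single-housed libraries, against 4.58, 7.07 and 5.94 CPM in group-housed libraries. Both genes were lowest in group-housed replicate 1 and highest in single-housed replicate 3. Abi3bp (chromosome 16, 56477959 to 56690248) encodes an extracellular matrix protein that binds an ABI family member. It had 11.4, 15.7 and 11.5 CPM in single-housed libraries, against 8.23, 9.56 and 6.89 CPM in group-housed libraries. Here the groups did not overlap, and group-housed replicate 1 lay between the other group-housed libraries.

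Per kilobase of exon the set spanned a wide range of levels. Igfbp2 was the most abundant at 24.8 ± 3.13 RPKM (CPM per kilobase of exon) in single-housed libraries, against 22.1 ± 2.63 RPKM in group-housed libraries (SD, n = 3 each). Igf2 followed at 12.4 ± 1.31 RPKM in single-housed libraries, against 11.2 ± 4.06 RPKM in group-housed libraries. Bgn was at 6.71 ± 0.882 and Fmod at 6.46 ± 1.37 RPKM in single-housed libraries, against 5.89 ± 0.276 and 5.82 ± 2.46 RPKM in group-housed libraries. Then came Dcn, Slc13a4, Aldh1a2, Ogn and Abi3bp, whose mean levels ran from 3.94 down to 2.71 RPKM in single-housed libraries and from 3.47 down to 1.73 RPKM in group-housed libraries. Lum was the lowest, at 0.933 ± 0.130 RPKM in single-housed libraries, against 0.916 ± 0.173 RPKM in group-housed libraries. In this order, only the first and the last step exceeded the spread over the 6 libraries: Igfbp2 never fell below 20.4 RPKM while Igf2 never passed 14.4 RPKM, and Abi3bp never fell below 1.45 RPKM while Lum never passed 1.09 RPKM. The ranges of every other pair of neighbours overlapped, although Igf2 was above Bgn within each of the 6 libraries.

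No gene of the set passed the test for housing. With edgeR's quasi-likelihood test adjusted over all genes, 0 of the 10 were called, where 0% of all 15258 genes tested were called; DESeq2 and limma-voom also called 0 of the 10, and over all genes limma-voom called 0 and DESeq2 called 2 higher and 6 lower. At an unadjusted p under 0.05 there was 1 of 10, Abi3bp, against 1.56% of all genes tested. Its log2 difference, single-housed minus group-housed, was 0.64 (SE 0.165, 95% interval 0.27 to 1.02, unadjusted p = 0.00386, adjusted p = 0.9999), from means of 12.9 ± 2.43 CPM in single-housed libraries and 8.22 ± 1.33 CPM in group-housed libraries (SD, n = 3 each). It was also the 1 gene of 10 whose groups did not overlap, where 4.86% of all genes tested had groups that did not overlap, 2.46% with the single-housed libraries above and 2.4% with them below. Abi3bp ranked 15 of 15258 by unadjusted p in edgeR's test, and its difference was 0.48 to 0.77 when any 1 library was left out.

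The remaining differences were small beside their errors. All 10 log2 differences were above 0 with a median of 0.18, where 50.7% of all genes tested were above 0 with a median of 0.00. The other 9 ranged between 0.02 (SE 0.201) for Lum and 0.24 (SE 0.330) for Slc13a4. Dcn had a difference of 0.18 (SE 0.136) and Bgn one of 0.19 (SE 0.115). The 95% interval was widest for Ogn, from −0.66 to 1.10. Without group-housed replicate 1, the median was −0.01, and 5 of the 10 were above 0, where 51.2% of all genes were. Lum, Igf2, Slc13a4, Ogn and Fmod then had differences of −0.10, −0.12, −0.10, −0.13 and −0.16. Without single-housed replicate 3, 7 of the 10 were above 0 with a median of 0.09, and Lum, Ogn and Fmod had differences of −0.09, −0.12 and −0.04.

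**Figure D2:**
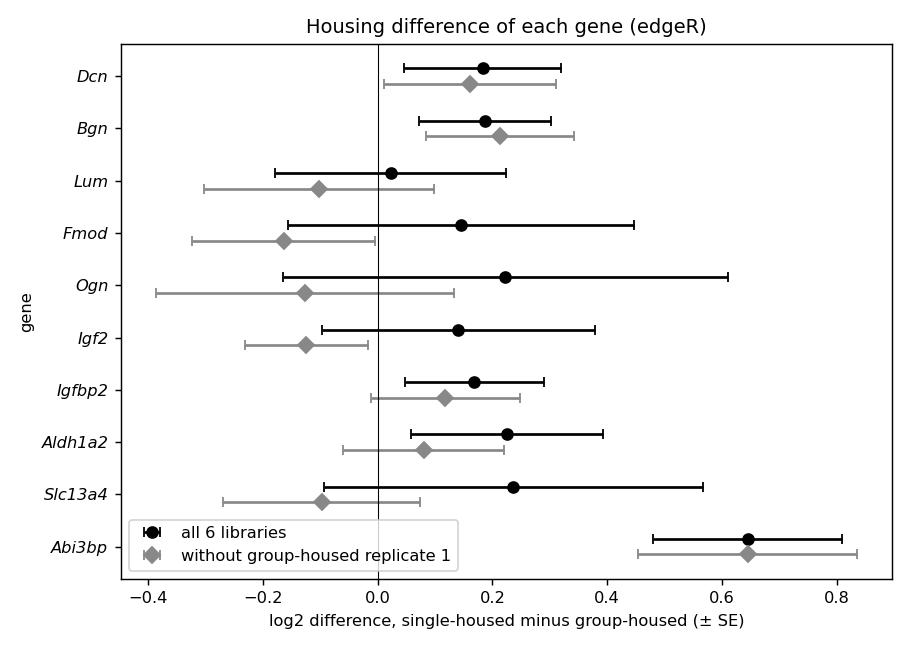
Log2 difference of each gene, single-housed minus group-housed, with its SE (edgeR); black circles use all 6 libraries and grey diamonds leave out group-housed replicate 1. Abi3bp stays at 0.64 in both fits, while Fmod, Ogn, Igf2, Slc13a4 and Lum move to below 0 without that library.

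The spread over the libraries separated the genes more clearly than housing did. The highest level exceeded the lowest by 3.84-fold for Ogn, 3.16-fold for Slc13a4, 2.69-fold for Fmod, 2.27-fold for Abi3bp and 2.16-fold for Igf2. For Aldh1a2 and Lum the ratio was 1.67 and 1.47. It was 1.36 for Dcn, 1.35 for Igfbp2 and 1.31 for Bgn. By the SD of log2 CPM over the 6 libraries, Ogn stood at percentile 98.7 of all genes tested, Slc13a4 at 97.8 and Fmod at 96.6, while Bgn stood at 61.2. Bgn, Dcn and Igfbp2 were thus the steadiest of the set.

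Lum, Igf2, Aldh1a2, Slc13a4, Ogn and Fmod varied together from library to library, and Bgn and Abi3bp did not vary with them. These 6 genes were singled out after their values were seen. Over the 6 libraries, Pearson's r of log2 CPM was 0.75 to 0.98 and Spearman's rho 0.60 to 0.94 in all 15 pairs among the 6 genes, given as a description, since the libraries share their depth and scaling. After each housing group's mean was subtracted, r in the 15 pairs was 0.76 to 0.98. Without group-housed replicate 1 it was 0.29 to 0.93, so much of the likeness came from that library, although Slc13a4, Ogn and Fmod kept values of 0.83 to 0.92 among themselves. Bgn had r of −0.41 to −0.01 with the 6 genes, and Abi3bp had 0.11 to 0.47. Dcn and Igfbp2 lay between, with 0.20 to 0.58 and 0.22 to 0.63. After each housing group's mean was subtracted, r with the 6 genes was −0.67 to −0.27 for Bgn and −0.21 to 0.22 for Abi3bp. Without group-housed replicate 1 it was −0.94 to −0.22 for Bgn and −0.61 to 0.34 for Abi3bp. For Dcn and Igfbp2 it was then −0.47 to 0.51 and −0.21 to 0.44.

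**Figure D3:**
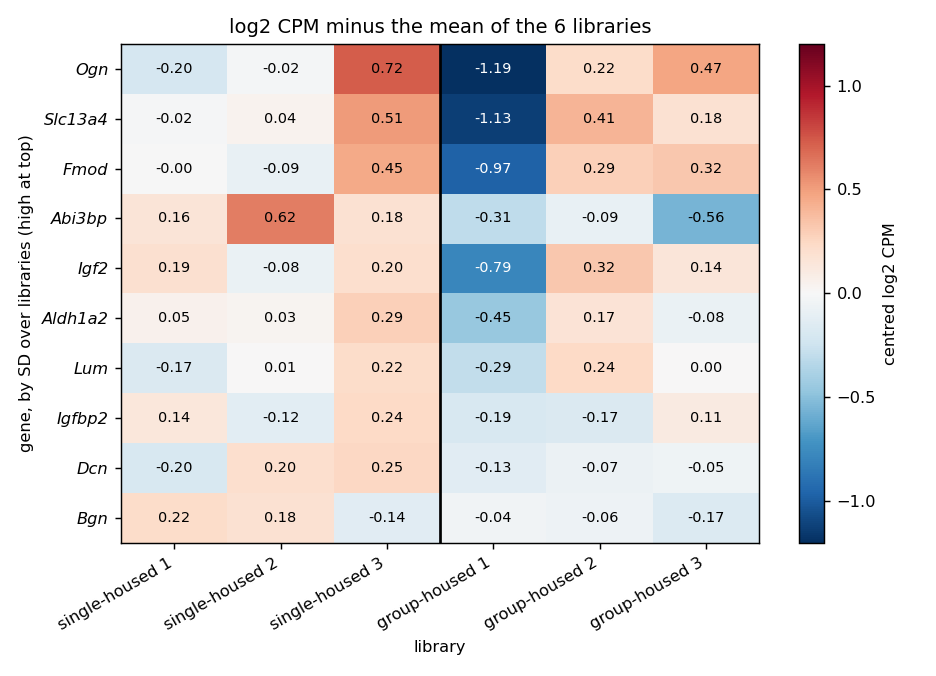
Heat map of log2 CPM minus the mean of the 6 libraries, with genes ordered by their SD over libraries and single-housed libraries left of group-housed ones. In the column of group-housed replicate 1, Ogn, Slc13a4, Fmod and Igf2 are at −1.19, −1.13, −0.97 and −0.79, while Bgn and Dcn are at −0.04 and −0.13.

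The stretches before the transcription starts of Ogn, Slc13a4 and Fmod, which varied together, are shown beside that of Bgn, which did not. The sequences are from RefSeq on build GRCm38.p6, 120 bases each, 5′ to 3′ on the strand of the gene and ending just before the annotated start. As a check, the bases at the end of each promoter entry, after the start, were sought in GENCODE transcripts of the gene. They were found for Slc13a4, Fmod and Bgn but not for Ogn, so the start of Ogn is less certain. They lie at chr13:49607895-49608014 (plus strand), chr6:35308127-35308246 (minus strand), chr1:134037134-134037253 (plus strand) and chrX:73483481-73483600 (plus strand). Capitals mark the core of the TEAD factor motif, GGAATG, and the CCAAT box, on either strand.
Ogn: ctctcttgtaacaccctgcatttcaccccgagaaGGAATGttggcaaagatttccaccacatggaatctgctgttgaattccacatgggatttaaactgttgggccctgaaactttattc
Slc13a4: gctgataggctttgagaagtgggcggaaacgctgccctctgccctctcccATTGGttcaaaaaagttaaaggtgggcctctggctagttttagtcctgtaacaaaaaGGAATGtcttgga
Fmod: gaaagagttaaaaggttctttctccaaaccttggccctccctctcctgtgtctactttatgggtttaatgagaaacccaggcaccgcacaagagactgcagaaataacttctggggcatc
Bgn: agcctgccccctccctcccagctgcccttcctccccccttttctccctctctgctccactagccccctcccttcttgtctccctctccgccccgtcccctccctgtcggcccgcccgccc

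Of the 10 genes, 7 had entries in the promoter table, 11 start sites in all. The Ogn entry, 1 Igfbp2 entry and 1 Igf2 entry were not matched in the transcript check but are counted here. In the 250 bases before the start, on both strands, GGAATG was present in 5 of the 11 entries, those of Ogn and Slc13a4 and 3 of Igf2, and in 12.6% of 32851 mouse promoter entries of the same length. CCAAT was present in 3 of the 11, including Slc13a4, and in 33.8% of all entries. TATAAA, the core promoter box, was present in 1 of the 11 and in 12.4% of all entries. The AP-1 site TGANTCA and the forkhead core TAAACA were each present in 1 of the 11, and in 6.75% and 12.0% of all entries. In the window shown for Slc13a4, 1 CCAAT box on the minus strand and 1 GGAATG were found, while none of these letters was found in the windows of Fmod and Bgn. These matches describe letters and not binding.

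Among the proteoglycan genes that neighbour the set in the genome, Prelp had the highest level. Ogn lies beside Omd, Aspn and Ecm2 in the genome, and Omd encodes osteomodulin, a keratan sulfate proteoglycan of bone. Omd had 0.763, 0.448 and 1.08 CPM in single-housed libraries, against 0.225, 1.01 and 1.05 CPM in group-housed libraries, or 6 to 36 reads. It was lowest in the same library as Ogn. Aspn (asporin) and Ecm2 had no such low value there, at 1.16 and 3.38 CPM in group-housed replicate 1, within the range of the other libraries for Aspn and Ecm2. Kera, beside Lum and Dcn, had 0 reads in every library, where 3 reads would be 0.0897 to 0.116 CPM of the total, and its neighbour Epyc (epiphycan) had a log2 difference of 0.79 (SE 0.377). Prelp, beside Fmod, had 19.7, 18.6 and 17.2 CPM in single-housed libraries, against 15.4, 18.2 and 19.2 CPM in group-housed libraries. Optc had 0.381 to 0.676 CPM over the 6 libraries. Over the 13 genes of this family that were tested, the 5 of the set included, 0 were called by edgeR in either direction, and 9 were above 0 with a median of 0.06; the 8 outside the set had 4 above 0 and a median of −0.00, and of the 13, 0 had an unadjusted p under 0.05.

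The genes around Igf2, retinoic acid and sulfate showed no called difference either. Ins2 and H19, next to Igf2, had 0 to 1 and 1 to 4 reads a library and were not tested. Of 14 genes of the insulin-like growth factor system that were tested, 7 were above 0 and 7 below, and 0 were called by edgeR, with 1 at an unadjusted p under 0.05, Igfbp4. This other carrier protein gene had 108, 119 and 114 CPM in single-housed libraries, against 136, 120 and 140 CPM in group-housed libraries without overlap. Its log2 difference was −0.22 (SE 0.0829). The growth factor receptor gene Igf2r had a difference of 0.13 (SE 0.101) and the protease gene Htra1 one of −0.17 (SE 0.0957). Of 18 retinoic acid genes, 10 were above 0 and 8 below. The retinoic acid receptor gene Rarb, which the striatum expresses strongly, had a difference of 0.86 (SE 0.428) with 37.2, 21.2 and 10.2 CPM in single-housed libraries, against 18.3, 8.93 and 10.6 CPM in group-housed libraries. Rara, another receptor gene, was at −0.31 (SE 0.143), and Aldh1a3, a second enzyme of retinoic acid synthesis, at −0.35 (SE 0.184). Of 9 sulfate transport and activation genes 6 were above 0, with Slc26a11, Slc35b3 and Papss2 at 0.12, 0.05 and 0.07.

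Other genes of the pia and arachnoid were low in the same library as the set. Of 40 further leptomeningeal genes, 28 were above 0 with a median log2 difference of 0.08, and 0 were called by edgeR, 2 having an unadjusted p under 0.05; without group-housed replicate 1, 21 of the 40 were above 0. As the mean of log2 CPM centred over the 6 libraries, the set stood at 0.02, 0.08 and 0.29 in single-housed libraries, against −0.55, 0.13 and 0.04 in group-housed libraries. The 40 leptomeningeal genes stood at 0.01, 0.01 and 0.15 in single-housed libraries, against −0.29, 0.06 and 0.06 in group-housed libraries. Group-housed replicate 1 was the lowest library for 25 of the 40, where it was the lowest for 26.4% of all genes tested. The groups did not overlap for 5 of the 40, where they did not for 4.86% of all genes tested. Foxc1, a transcription factor gene of the meninges, had 5.16, 4.54 and 4.95 CPM in single-housed libraries, against 3.83, 4.65 and 5.65 CPM in group-housed libraries. It was lowest in group-housed replicate 1, although the groups overlapped. Tbx18, also a transcription factor gene, had 2.05 to 2.49 CPM over all 6 libraries and was not lowest there, at 2.22 CPM. Gjb6, Itih2 and Bmp5 had the smallest unadjusted p of the 40, with differences of −0.28 (SE 0.0832), 0.41 (SE 0.145) and 0.43 (SE 0.230). Gjb6, which encodes connexin 30, is also on the astrocyte list used here, and Vtn is also on the mural cell list. Foxc1 and Tbx18 were named after their values were seen.

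The 10 genes outside the set whose pattern was most like its mean were sought among 1802 genes with a mean of at least 1 CPM and an SD of at least 0.25. They were Gpr137c, Ppic, Crabp2, Slc22a6, Sigirr, Col17a1, Gjb2, Serping1, Ptgis and Cdsn, with Pearson's r of 0.96 to 0.99 over the 6 libraries and Spearman's rho of 0.60 to 1. Of these, Crabp2 (a retinoic acid carrier), Slc22a6 (an organic anion transporter), Gjb2 (connexin 26) and Serping1 (the C1 inhibitor) were on the leptomeningeal list. That list held 40 of the 15258 genes tested, and its share of the 1802 is not given here. Of the 1802 genes, 15 had r above 0.95. Slc22a6 had 8.00, 10.3 and 11.1 CPM in single-housed libraries, against 4.21, 10.5 and 8.25 CPM in group-housed libraries. Crabp2 had 1.80, 1.82 and 2.25 CPM in single-housed libraries, against 1.09, 1.77 and 1.65 CPM in group-housed libraries, without overlap. With the 2 libraries farthest from the median left out, r was 0.95 for Gpr137c, 0.93 for Slc22a6 and 0.80 for Ppic, and between −0.30 and 0.56 for the other 7. For those 7 the likeness rests on group-housed replicate 1 and single-housed replicate 3.

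Of the 8 interstitial collagens, Col1a1, Col1a2 and Col3a1 were lowest in that library, and Col5a1 and the 3 collagen VI genes were highest there. Col1a1 had 12.9, 14.1 and 13.8 CPM in single-housed libraries, against 8.19, 12.9 and 12.6 CPM in group-housed libraries. Col3a1 had 4.88, 3.98 and 5.43 CPM in single-housed libraries, against 2.63, 4.42 and 4.03 CPM in group-housed libraries. Col5a1, a subunit gene of the fibril collagen V, had 29.4, 37.8 and 34.5 CPM in single-housed libraries, against 48.8, 35.5 and 25.9 CPM in group-housed libraries. Group-housed replicate 1 was thus low for 3 of the 8 and high for 4. Col6a1, a subunit gene of collagen VI, had 117, 141 and 90.1 CPM in single-housed libraries, against 152, 88.0 and 69.2 CPM in group-housed libraries. The mean centred log2 CPM of the 8 interstitial collagens was 0.05, 0.11 and 0.05 in single-housed libraries, against 0.02, −0.04 and −0.19 in group-housed libraries, so this list was lowest in group-housed replicate 3. Of the 8 collagens 7 were above 0, and 0 were called by edgeR or had an unadjusted p under 0.05.

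**Figure D4:**
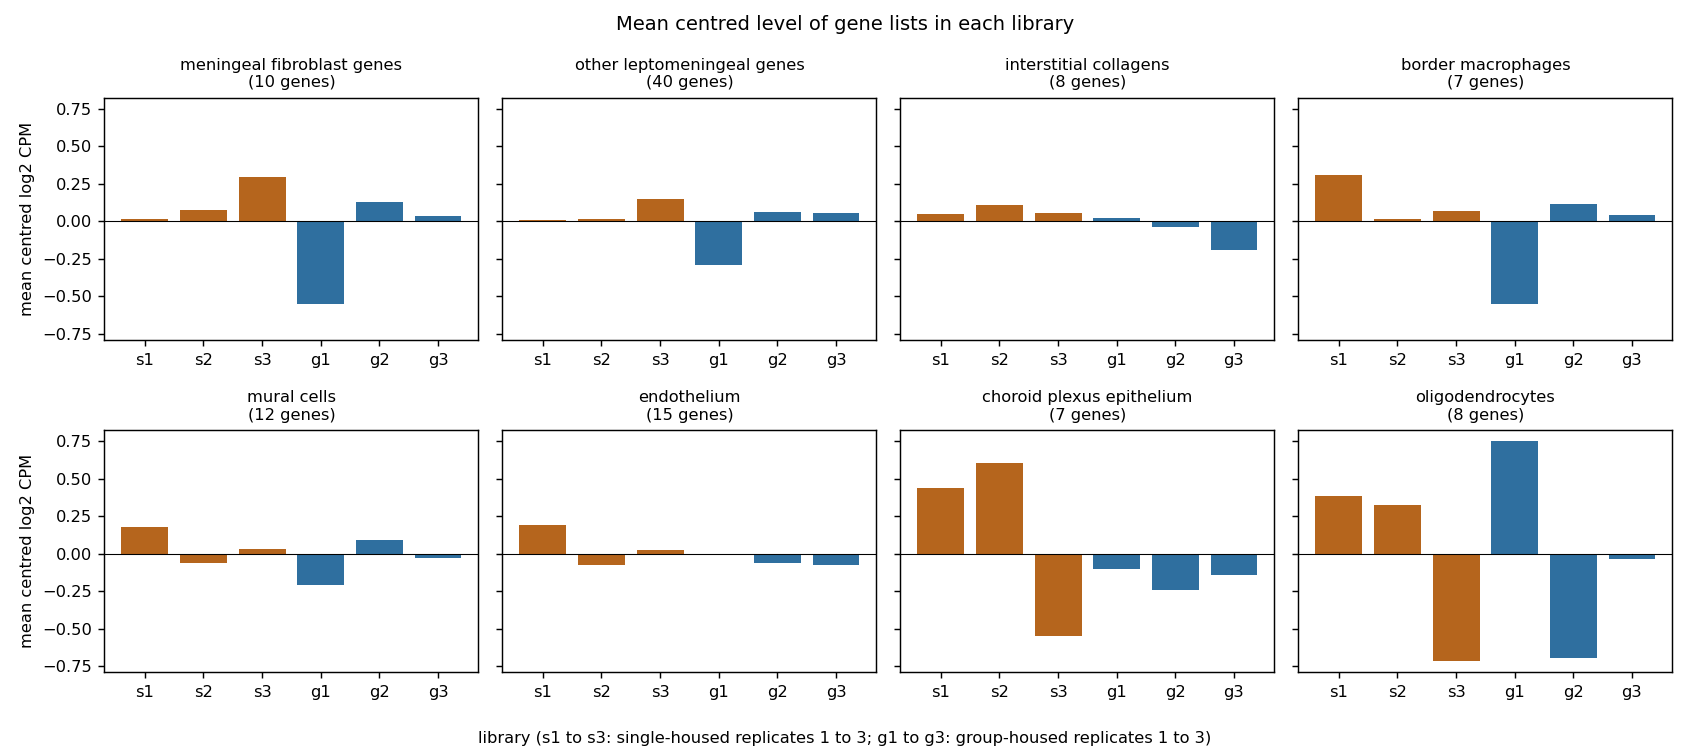
Mean log2 CPM of 8 gene lists, centred over the 6 libraries, with single-housed libraries (s1 to s3) left of group-housed libraries (g1 to g3). Group-housed replicate 1 is at −0.55 for the meningeal fibroblast genes, −0.29 for the other leptomeningeal genes and −0.55 for border macrophages, and at 0.75 for oligodendrocytes.

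Most markers of border macrophages were lowest in the same library as the set. Macrophages of the brain's borders, which live in the meninges and around vessels, had summed levels of 28.7 to 36.7 CPM in single-housed libraries, against 25.9 to 33.1 CPM in group-housed libraries, with 6 of 7 tested genes lowest in group-housed replicate 1. The exception was Stab1, the most abundant of these genes by CPM. It had 19.8 CPM in group-housed replicate 1 and was lowest in group-housed replicate 3, at 18.9 CPM. Lyve1, a hyaluronan receptor gene, had 0.946, 0.867 and 1.11 CPM in single-housed libraries, against 0.376, 1.28 and 0.921 CPM in group-housed libraries. These Lyve1 levels rest on 10 to 39 reads a library, with the fewest in group-housed replicate 1. Mural cell genes summed to 206 to 247 CPM in single-housed libraries, against 197 to 216 CPM in group-housed libraries, and endothelial genes to 359 to 418 CPM in single-housed libraries, against 357 to 376 CPM in group-housed libraries. Of the mural list 6 of 12 and of the endothelial list 4 of 15 were lowest in group-housed replicate 1, where 26.4% of all genes tested were, so the endothelial share was that of all genes.

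Oligodendrocyte genes ran the other way. They summed to 4267, 4062 and 2019 CPM in single-housed libraries, against 5459, 1994 and 3146 CPM in group-housed libraries, with the most in the library poorest in meningeal genes. Striatal genes summed to 2106, 1009 and 347 CPM in single-housed libraries, against 979, 385 and 440.3 CPM in group-housed libraries. Choroid plexus genes were low, at 7.81, 8.76 and 3.45 CPM in single-housed libraries, against 4.66, 4.58 and 4.51 CPM in group-housed libraries, and Ttr, their most abundant transcript in that tissue, had 3 to 70 reads a library. The sum of this list was lowest in single-housed replicate 3, where Slc13a4 was highest. Whether choroid plexus contributed to the values of Igf2 or Slc13a4 was not tested. Excitatory neuron genes summed to 2609 to 2839 CPM in single-housed libraries, against 2619 to 2887 CPM in group-housed libraries, and astrocyte genes to 4507 to 4879 CPM in single-housed libraries, against 4766 to 4839 CPM in group-housed libraries. Genes of dura and bone summed to 46.8 to 50.8 CPM in single-housed libraries, against 46.8 to 57.0 CPM in group-housed libraries, with the most in group-housed replicate 1. No gene of these 9 lists was called by edgeR, DESeq2 or limma-voom, with 1 endothelial gene and 1 astrocyte gene, the Gjb6 already counted among leptomeningeal genes, at an unadjusted p under 0.05 in edgeR's test, and the part of these cell types in the values of the set was not tested.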

How the data were processed

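RNA was sequenced from 6 prefrontal cortex samples. Per the labels' protocols, RNA was isolated on columns and libraries came from a stranded kit that selects polyadenylated RNA. The build was mm9 and the tools named were STAR, featureCounts and FastQC, per the submitters' processing notes. Their versions, the annotation and the strand setting were not given in the sources used here. As deposited, the values are raw read counts per gene, with no normalization by the authors; the Length column, per the file headers, holds exon bases and served for RPKM, computed here like CPM from the deposited counts.

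Samples were grouped by the housing label. Genes were filtered with filterByExpr (minimum count 10, minimum total 15), scaled by TMM and tested with edgeR 4.0.16 in R 4.3.3 (quasi-likelihood, Benjamini-Hochberg over all genes, threshold 0.05). SEs come from the F statistic. log2 CPM used a prior count of 2. DESeq2 1.42.0 and limma 3.58.1 were alternatives. In counts simulated from these libraries over 15156 genes, edgeR found 47.0% of the genes changed 1.5-fold, 83.3% of those changed 2-fold and 97.0% of those changed 4-fold. It made 10 false calls. Each gene was simulated independently of the others, so differences between libraries that many genes share were not part of the simulation. The genes and lists were chosen with earlier results of these data known. By rule, named genes were all 10 of the set, the 10 of most alike pattern, the 3 of smallest p of each related list, the 2 most abundant of each cell type list and genomic neighbours, up to 30 in all. More than 30 are named. Of the abundant cell type genes, only Stab1, Mrc1 and Vtn are named. Foxc1, Tbx18, Lyve1, Ttr, Col1a2 and Col5a1 fall outside the rule. These departures were made after values were seen. Cemip was matched through an older symbol. Poisson intervals and the floor of 3 counts cover counting error only.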

Additional observations from a re-analysis of the deposited data

How the results depend on the processing

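Over 12 settings of the housing fit, 0 of the 10 genes were called in each. DESeq2 called 2 genes higher and 6 lower over all genes, and leaving out 1 library gave 0 to 1 lower and 0 higher in edgeR. The number of the 10 above 0 was 10 with every setting that kept all libraries and 5 to 10 with 1 library left out. The median log2 difference was 0.18 to 0.21 with all libraries and −0.01 to 0.33 with 1 left out. With 1 library left out, the log2 difference ranged from −0.10 to 0.16 for Lum, −0.12 to 0.36 for Igf2, −0.10 to 0.52 for Slc13a4, −0.13 to 0.54 for Ogn and −0.16 to 0.35 for Fmod, the lowest without group-housed replicate 1. The range of the mean centred level over the libraries, 0.84 on the log2 scale, was 0.44 with the other leptomeningeal genes and 0.30 with the interstitial collagens in place of the set; with 1 library left out, an alternative added after seeing the data, it was 0.28 to 0.84. The difference in that mean between the groups, 0.26, was 0.05 without group-housed replicate 1 and up to 0.38 without another library. The count of further leptomeningeal genes above 0 was 21 to 33 with 1 left out, also added after seeing the data. Other choices of members, scaling and prior count kept the range at 0.75 to 0.89.

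Deviations of same-numbered libraries from their group means correlated at 0.27, −0.32 and 0.17. With 3 libraries in each group, these values cannot show whether the numbers pair the samples. With the replicate block 0 genes were called, and the median of the set was 0.21. Depth limits Lum most, at 41 to 74 reads.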
